A study of Mus musculus with 6 samples.

Results

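The 35 genes described here were chosen by symbol, from the 24110 genes of the deposited table, as sensors of RNA and DNA, regulators of interferon signalling and interferon-induced effectors. All 35 were in the table and all passed the filter on low values (a mean of at least 10 scaled counts), at 116 to 7954 scaled counts in any library. A scaled count is a gene's read count brought to one common library total. The RNA came from mouse hematopoietic stem cells, sorted by the gate Lineage-Sca-1+ with CD150 present and CD48 absent. One group carried the intact floxed gene (Prmt5 fl/fl) and the other had lost it (Prmt5 KO). Prmt5 encodes a methyltransferase that places symmetric dimethyl marks on arginines, among others of the Sm proteins of the spliceosome. All mice were C57BL/6, matched between the groups for litter and sex, and were sampled 7 days after induction, with 3 libraries in each group and 2 pooled mice behind each library. The sources used here do not name the Cre driver, the inducing agent or the age of the mice, nor say whether the fl/fl mice received the agent. Some agents used to induce Cre, such as poly(I:C), themselves switch on interferon-stimulated genes, so the levels given here need not be those of untreated animals. Each fl/fl library shares its replicate number and a prefix of its title with 1 KO library, and the meaning of that prefix is not stated. C57BL/6 mice carry a form of Mx1 that lacks several exons and makes no working protein.

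Cells sense foreign or misplaced nucleic acid through receptors such as RIG-I and MDA5 in the cytosol, which signal through adaptors to IRF transcription factors and to the production of type I interferon. Interferon acts on its receptor, and Janus kinases then activate the factor ISGF3, which includes STAT2 and IRF9. ISGF3 binds interferon-stimulated response elements in the promoters of many genes, many of which encode the sensors and factors of the same circuit. Hematopoietic stem cells are known to keep a set of these genes active without infection, and they respond to interferon by leaving quiescence.

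The promoters of several members are printed here because these are well-known interferon targets with a match to the response element in the window. RefSeq promoter windows (GRCm38.p6, 250 bases before to 50 after a gene's start) were matched by symbol for 26 of the 35 members. The core of the response element was searched as GAAA, any 2 bases and GAAA again, on both strands and with overlapping matches allowed. It was present for 14 of those 26 members (53.9%), against 3.99% of all 27025 genes with a window and 3.71% of the 10537 tested genes with one. Members of the set are known interferon targets, so this share describes the set and is no result of the comparison. Each stretch is given 5′ to 3′ on the gene's strand and ends before the first annotated start, and capitals mark matches to the core, which reads TTTC, 2 bases and TTTC where it lies on the other strand.
Isg15 (chr4:156200819-156200928, minus strand): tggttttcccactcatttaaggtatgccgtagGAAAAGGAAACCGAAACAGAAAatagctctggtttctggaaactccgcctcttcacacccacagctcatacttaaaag
Ifit1 (chr19:34640779-34640870, plus strand): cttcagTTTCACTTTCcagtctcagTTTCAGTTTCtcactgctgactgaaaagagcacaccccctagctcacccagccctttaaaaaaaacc
Ifit3 (chr19:34583369-34583478, plus strand): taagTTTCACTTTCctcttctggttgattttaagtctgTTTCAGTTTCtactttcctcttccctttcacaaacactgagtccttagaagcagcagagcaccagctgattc
Rsad2 (chr12:26456503-26456612, minus strand): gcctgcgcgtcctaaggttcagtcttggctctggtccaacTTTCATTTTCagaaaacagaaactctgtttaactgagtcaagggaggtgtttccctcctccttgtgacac
Oas1a (chr5:120907526-120907635, minus strand): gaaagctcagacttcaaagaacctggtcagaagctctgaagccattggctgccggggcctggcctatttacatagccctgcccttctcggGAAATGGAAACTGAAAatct
Oas3 (chr5:120777662-120777769, minus strand): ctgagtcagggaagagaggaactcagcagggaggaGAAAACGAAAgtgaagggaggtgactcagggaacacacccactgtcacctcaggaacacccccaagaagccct
Igtp (chr11:58199446-58199555, plus strand): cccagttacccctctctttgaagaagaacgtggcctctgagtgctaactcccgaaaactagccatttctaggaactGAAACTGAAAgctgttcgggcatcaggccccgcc
Gbp3 (chr3:142559934-142560025, plus strand): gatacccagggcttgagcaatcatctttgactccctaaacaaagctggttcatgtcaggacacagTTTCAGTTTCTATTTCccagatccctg

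In the Isg15 stretch 3 matches overlap in a single run, and in those of Oas1a and Gbp3 2 matches overlap. Ifit1 and Ifit3 each hold 2 separate matches on the other strand. The other members with a match were Ddx58, Ifih1, Eif2ak2, Stat2, Bst2 and Gbp2. The shorter and more frequent core of the interferon gamma-activated site, TTC, any 3 bases and GAA, which reads the same on both strands, was present for 9 of the 26 members (34.6%), among them Irf1, and for 9.55% of all genes. A match is a string of letters, and its use in these cells was not measured.

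The libraries held 37834096 to 44704636 reads in genes, with less in each KO library than in each fl/fl library. The targeted gene Prmt5 (chromosome 14, 54507187 to 54517525) was at 6010 to 6076 scaled counts in fl/fl and at 897 to 1056 in KO (log2 fold change -2.60, limma, adjusted p = 6.18e-04), low in every library labelled KO. Of the 12 stem cell markers all were present. Summed granulocyte markers (8 genes such as Ngp and S100a8) ran from 19546 to 245531 scaled counts in fl/fl and from 75069 to 1001941 in KO, lowest in fl/fl replicate 3 and highest in KO replicate 3. Summed monocyte and macrophage markers, mostly Lyz2, were at 32258 to 51794 and 23727 to 156106, again highest in KO replicate 3. Plasmacytoid dendritic cell markers, of a cell type known for interferon production, summed to 77.9 to 174 and 92.2 to 260, and 3 of 6 were below the filter on low values. Megakaryocyte markers summed to 50778 to 77526 in fl/fl and 21705 to 47875 in KO, and red cell precursor markers to 3084 to 7344 and 2046 to 2458. These sums were lower in every KO library, and limma called 1 gene of each list lower (0.453% of all genes). The sums of the other marker lists overlapped between the groups. The part of these cells in the results below was not tested. The main counts are also given without fl/fl replicate 3, and without it and KO replicate 3. In bulk samples, fewer cells of a type and less RNA per cell cannot be told apart.

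Transcripts of the whole set were detected in the sorted samples of both genotypes. Per kilobase of the deposited gene length, the members had a median level of 641 scaled counts, against 449 for all 14113 genes tested, and 25 of 35 were above that value. The highest levels per kilobase were those of Bst2 (tetherin, which holds budding virions at the cell surface) at 3974, Ifi27 (a mitochondrial interferon-induced protein) at 3282, Igtp (a GTPase that acts on pathogen vacuoles) at 2217 and Ifi35 at 2162. The lowest were those of Mx2 at 77.7, Mx1 at 99.6 and Ifit3 at 117, so the set spans a wide range of levels.

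No member passed the test between genotypes. By limma's moderated test on log2(scaled count + 1), adjusted over all genes tested, 0 of 35 members were higher and 0 lower in KO, with adjusted p values of 0.12 to 0.981. Over all genes 0.276% were called higher and 0.453% lower (39 and 64 genes; 35 and 22 with median-of-ratios size factors, 35 and 32 with TMM, 38 and 26 with quantile normalization). At an unadjusted p below 0.05 there were 5 members (14.3%), 1 higher and 4 lower, against 18.2% of all genes (4.58% higher and 13.6% lower). EdgeR on the recovered reads called 0 members, where it called 0.425% of all genes, with 3 members at an unadjusted p below 0.05 against 17.4% of all genes. DESeq2 called 1 member, Oas2, higher, where it called 6.96% of all genes (2.59% higher and 4.37% lower). The median log2 fold change of the members was -0.17, against -0.048 for all genes tested, and 23 of 35 were below 0 (65.7%, against 55.2% of all genes). Without KO replicate 2 those medians were -0.050 and -0.055, so the lower median of the members rested on that library. The 95% interval of the fold change lay within a factor of 2 in both directions for 27 of the 35.

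**Figure D1:**
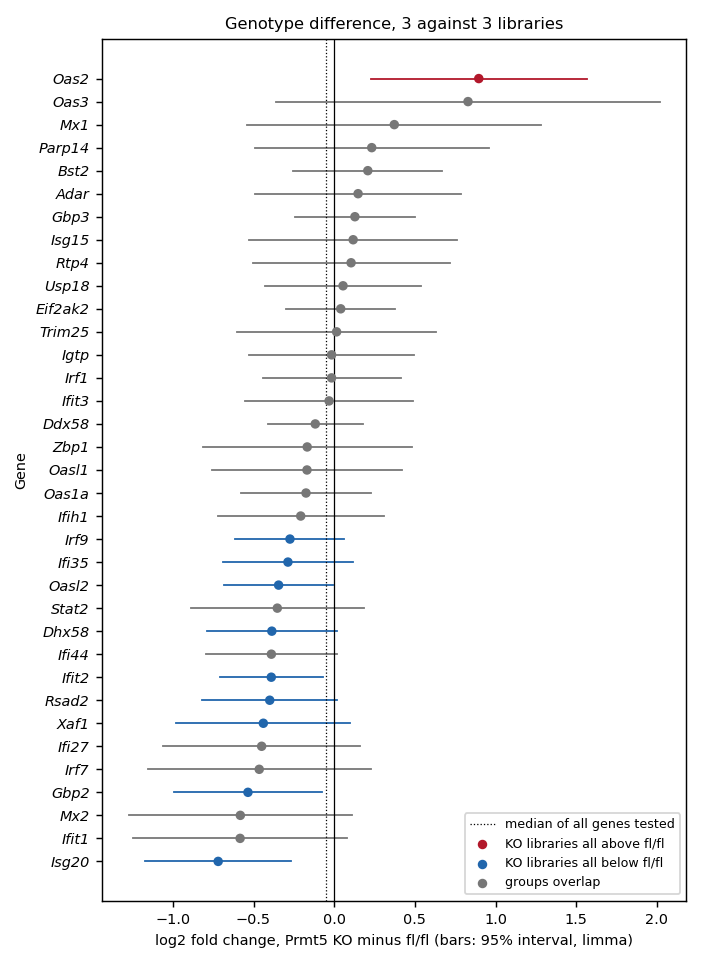
Log2 fold change of each of the 35 members (vertical axis) between Prmt5 KO and fl/fl libraries (horizontal axis), with bars for the 95% interval of limma; red and blue points mark members whose 3 KO values are all above or all below the 3 fl/fl values, grey points those that overlap. Oas2 stands alone on the higher side with groups apart, 9 members do so on the lower side, and the dotted line is the median of all genes tested.

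No KO value lay within the range of the fl/fl values, nor the reverse, for 10 of 35 members (28.6%), and for 28.2% of all genes tested. Of these 10, 1 was higher in KO (8.3% of all genes) and 9 were lower (19.9% of all genes). The share over both directions was near that of genes in general. Without fl/fl replicate 3, groups were apart for 3 members higher and 13 lower, against 14.8% and 29.5% of all genes, and without KO replicate 3 as well for 3 higher and 15 lower, against 22.2% and 36.2%. With fewer libraries groups are apart more often in general. Fold changes below are on the log2(value + 1) scale, with the standard error, and p values are from the same limma fit.

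Among the sensors, none was clearly apart. Dhx58 (LGP2, a helicase that tunes RIG-I and MDA5; chromosome 11, 100694884 to 100704271) was at 1714, 1759 and 2294 scaled counts in the fl/fl libraries (replicates 1, 2 and 3, as in all such lists), against 1663, 1348 and 1380 for KO. All KO values were below all fl/fl values, by a small margin, and the log2 difference was -0.39 ± 0.17 (limma, adjusted p = 0.292). Adar, which edits adenosine to inosine in double-stranded RNA and so keeps it from being sensed, was the most abundant sensor-class gene per kilobase (829). It was at 5919, 5812 and 2885 in fl/fl, against 4791, 5160 and 5460 in KO. The third fl/fl library was the lowest of all 6, and the fold change of 0.15 turned to -0.19 without it. Ddx58 (RIG-I), Ifih1 (MDA5), Eif2ak2 (the kinase PKR, which stops translation on double-stranded RNA) and Zbp1 (a sensor of Z-form nucleic acid) had log2 fold changes of -0.12, -0.21, 0.04 and -0.17, all with groups that overlapped. Adar overlaps Chrnb2 on the other strand, and the libraries do not mark strand, so shared reads are of uncertain origin.

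The oligoadenylate synthetase family, whose active members make short oligoadenylates when they bind double-stranded RNA, went both ways. Oas2 (chromosome 5, 120730333 to 120749853) was at 1304, 1202 and 753 in fl/fl, against 2095, 1419 and 2561 in KO. It was the only member with all KO values above all fl/fl values, with means of 1086 ± 293 and 2025 ± 574 (SD, n = 3 each) and a log2 fold change of 0.90 ± 0.29. Its adjusted p was 0.169 by limma, 0.164 by edgeR and 0.0224 by DESeq2. Oas3, its neighbour on the same strand, was at 1725, 1707 and 442 in fl/fl, against 1940, 1582 and 2379 in KO. The groups overlapped, and its log2 fold change of 0.83 ± 0.51 came to 0.18 without fl/fl replicate 3, while that of Oas2 came to 0.65. Without KO replicate 3 as well they came to 0.030 for Oas3 and 0.46 for Oas2. Oasl2, the most abundant of the family per kilobase (1365), was at 4240, 4500 and 5672 in fl/fl, against 3934, 3727 and 3605 in KO, log2 -0.34 ± 0.15 (limma, adjusted p = 0.267). Oas1a and Oasl1 were at -0.17 each. Oas1a has close copies in the same cluster, such as Oas1g (log2 -0.14), and reads shared between copies make both values uncertain.

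All 4 transcription factors had fold changes below 0, and none passed the test. Irf9 (chromosome 14, 55603571 to 55610030), the DNA-binding subunit of ISGF3, was at 3616, 4198 and 4614 in fl/fl, against 3592, 3051 and 3611 in KO. The lowest fl/fl value was barely above the highest KO value, at log2 -0.27 ± 0.14 (limma, adjusted p = 0.367), and the gene overlaps Rnf31 in the annotation. Stat2 was at 3237, 3851 and 2133 in fl/fl, against 2341, 2069 and 2637 in KO. Its groups overlapped through fl/fl replicate 3 alone. The log2 fold change was -0.35 with all libraries, -0.59 without fl/fl replicate 3 (limma, adjusted p = 0.0642) and -0.68 without that library and KO replicate 3 (limma, adjusted p = 0.0383). Irf7, the amplifier of interferon production, was at 1938, 1662 and 3138 in fl/fl, against 1821, 1116 and 1891 in KO (log2 -0.46 ± 0.30, and -0.20 without fl/fl replicate 3). Irf1, the most abundant of the 4 per kilobase (1885), was at 5284, 5957 and 7954 and at 6323, 5426 and 7051, and its fold change of -0.017 took either sign between scalings (0.071 with median-of-ratios size factors).

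In the ISG15 system, a ubiquitin-like modifier with its ligases and protease, all 3 fold changes were small. Isg15 was at 419, 318 and 558 in fl/fl, against 587, 371 and 436 in KO (log2 0.12 ± 0.28). Usp18, the protease that removes ISG15 and also dampens the interferon receptor, was at 2000, 2389 and 2735 and at 3196, 2043 and 2242 (log2 0.055 ± 0.21). In both genes the groups overlapped. Trim25, a ubiquitin ligase that acts on RIG-I, had a log2 fold change of 0.015, which turned to -0.30 without fl/fl replicate 3.

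The IFIT proteins bind foreign RNA at its 5′ end and block its translation. Ifit2 (chromosome 19, 34550694 to 34576419) was at 2731, 3141 and 2540 in fl/fl, against 2018, 2163 and 2217 in KO, with the groups apart, log2 -0.39 ± 0.14 (limma, adjusted p = 0.196). It was lower by a like amount without fl/fl replicate 3 (-0.46). Ifit1 was at 1025, 1163 and 1728 in fl/fl, against 931, 603 and 1090 in KO, where KO replicate 3 passed the lowest fl/fl library (log2 -0.58 ± 0.28). Ifit3 was near 0 at -0.032, and its sign depended on the scaling.

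Of the 11 antiviral effectors, 7 had fold changes below 0 (63.6%, against 55.2% of all genes) and 4 had all KO values below all fl/fl values (19.9% of all genes). Isg20 (chromosome 7, 78913424 to 78920396), an exonuclease that degrades single-stranded RNA, was at 1798, 1783 and 2607 in fl/fl, against 1393, 1123 and 1197 in KO. Its means were 2063 ± 472 and 1237 ± 140 (SD, n = 3 each), and its log2 fold change of -0.72 ± 0.19 had the smallest adjusted p of the set (limma, adjusted p = 0.12; 0.154 by edgeR and 0.0536 by DESeq2). Rsad2 (viperin, which makes a chain-terminating nucleotide) was at 1386, 1401 and 1909 and at 1232, 1047 and 1251 (log2 -0.40 ± 0.18). Fl/fl replicate 3 was the highest library for Isg20 and Rsad2, and also for the remaining pair with groups apart. Xaf1, a binding partner of the apoptosis inhibitor XIAP, was at 1239, 1251 and 2115 and at 1191, 1044 and 1057. Ifi35 was at 2801, 2883 and 4073 and at 2550, 2792 and 2544. Without fl/fl replicate 3 the log2 fold changes were -0.18 for Xaf1, in place of -0.44, and -0.11 for Ifi35, in place of -0.29. They were -0.54 for Isg20, in place of -0.72, and -0.25 for Rsad2, in place of -0.40. Bst2 was at 2137, 2852 and 3578 and at 3267, 3440 and 2992, with overlapping groups (log2 0.21 ± 0.20). Mx1 was at 275, 318 and 168 and at 454, 189 and 373, a wide spread within each group (log2 0.37 ± 0.39). Mx2, Ifi44, Ifi27, Rtp4 and Parp14 had log2 fold changes of -0.58, -0.39, -0.45, 0.10 and 0.23. Without fl/fl replicate 3 those of Ifi27, Rtp4 and Parp14 were -0.14, 0.40 and -0.12, that of Mx1 was 0.10 and that of Bst2 was 0.39.

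The interferon-induced GTPases disrupt the vacuoles of intracellular pathogens. Gbp2 (chromosome 3, 142620602 to 142638008) was at 3130, 3673 and 4432 in fl/fl, against 3008, 2053 and 2713 in KO, with the groups apart (log2 -0.53 ± 0.20; limma, adjusted p = 0.213). Igtp was at 3488, 4269 and 5860 and at 5166, 3642 and 4483, a log2 fold change of -0.016 with a 95% interval from -0.53 to 0.50, and it overlaps Irgm2 in the annotation. Gbp3 was at 0.13, so the neighbouring Gbp2 and Gbp3 lay on opposite sides of 0. That difference was not tested.

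**Figure D2:**
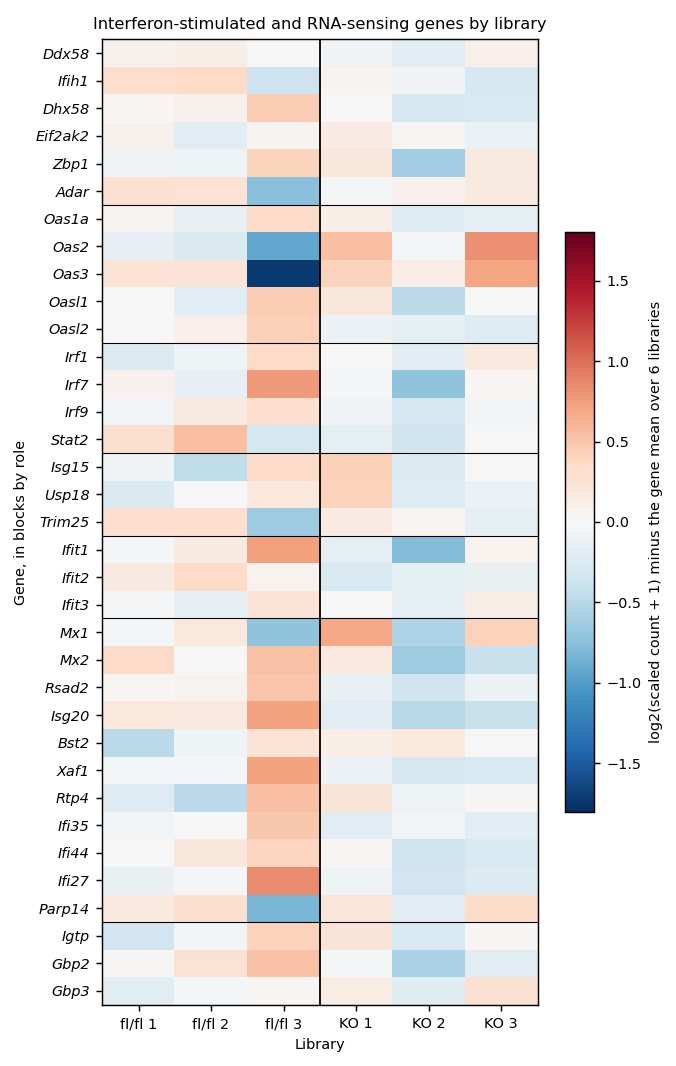
Log2(scaled count + 1) of each member (rows, in blocks by role) minus its mean over the 6 libraries (columns, fl/fl left of the line and KO right of it); red is above and blue below the gene's mean. The third fl/fl library has the strongest colours, red for most members and blue for Oas3, Oas2, Adar, Parp14, Mx1, Trim25 and a few others, and the second KO library is blue for most members.

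Within each group 1 library departed from the others for most members. Fl/fl replicate 3 held the highest fl/fl value for 24 members (68.6%, against 43.7% of all genes tested) and the lowest for 10 (28.6%, against 42.6%). It lay between the other fl/fl libraries for only 1 member. Its departure followed the deposited gene length. For the 8 members over 4000 bases it was below both other fl/fl libraries in 7, with a median log2 difference of -0.84 from their mean. For the 10 members of 2000 bases or less it was above both in 10, with a median of 0.54. The largest departures were those of Oas3 (4718 bases) at -1.96, Parp14 (7251 bases) at -1.06 and Adar (6039 bases) at -1.02 on one side, and Ifi27 (1053 bases) at 0.94 and Rtp4 (1573 bases) at 0.89 on the other. Across the 35 members the correlation of this difference with log2 length was r = -0.73 (Spearman's rho -0.80), and across all 14113 genes r = -0.39 (rho -0.57). These are correlations across genes of the same libraries, which are not independent replicates. In all genes tested the median difference was -0.60 over 4000 bases and 0.41 at 2000 bases or less. A length trend was thus present in the library at large. It did not cover the whole departure of the members. For the 17 members between these lengths fl/fl replicate 3 was above both other fl/fl libraries in 14 and below both in 3. Their median difference was 0.39, against -0.0062 for the 5617 tested genes of that length. The source of the trend and of this excess was not tested.

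This library set the size of several genotype differences. Without it limma called 0 members over all genes, while 10 members had an unadjusted p below 0.05 (3 higher and 7 lower), against 23.8% of all genes (7.48% higher and 16.3% lower), and 0.857% of genes were called higher and 1.82% lower. The median log2 fold change of the 8 long members went from 0.028 to -0.17 and that of the 10 short ones from -0.10 to 0.019. With a correction of each library for its length trend limma again called 0 members, where it called 3.33% of all genes, with 6 at an unadjusted p below 0.05 against 24.7% of all genes, and Oas2 was at 0.90, Ifit2 at -0.39 and Isg20 at -0.51. Without fl/fl replicate 3 and KO replicate 3 it called 0 members higher and 1 lower, Stat2, where 1.68% and 2.97% of all genes were called. At an unadjusted p below 0.05 there were then 12 members, 3 higher and 9 lower, against 26.2% of all genes (9.28% higher and 16.9% lower). Fold changes below 0 numbered 22 without fl/fl replicate 3 and 24 without both libraries, in place of 23. Those of all 14113 genes numbered 8429 and 8451, in place of 7792. The members had 19 without KO replicate 2 and 18 with the length correction, against 7887 and 6654 of all genes. With median-of-ratios, TMM, edgeR or DESeq2 the members had 20. The counts over all genes fell there too, to 6478, 6847 and 6968, and to 6602 of 14088 with DESeq2.

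**Figure D3:**
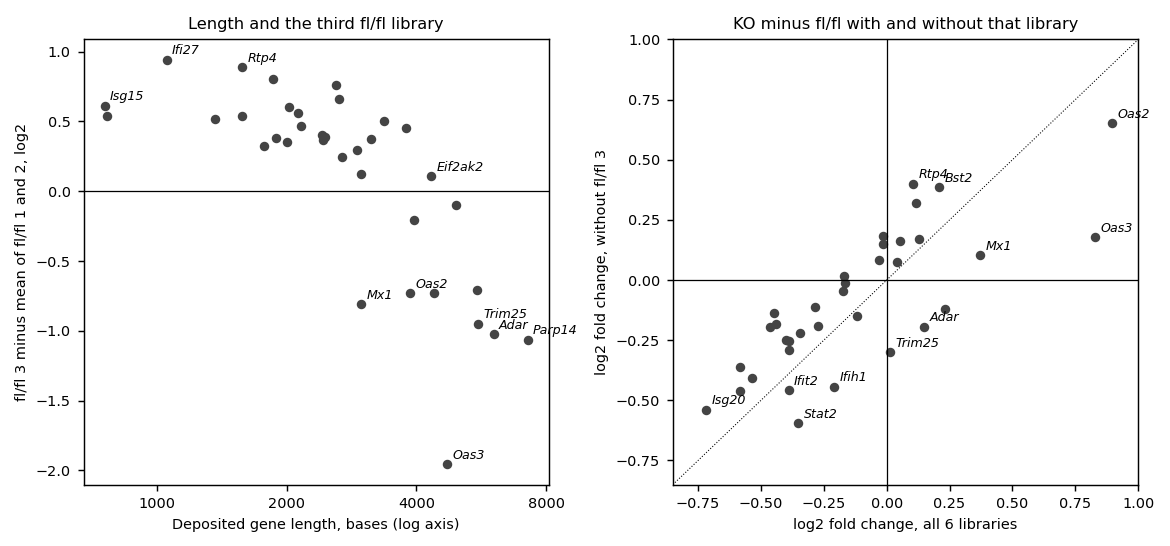
Left, the third fl/fl library minus the mean of the other fl/fl libraries (vertical axis, log2 scaled counts) against deposited gene length (horizontal, log axis), 1 point per member; most members over 4000 bases lie below 0, down to -1.96 for Oas3, and those of 2000 bases or less lie above. Right, log2 fold change of each member without that library (vertical) against that with all libraries (horizontal); the dotted line is equality, and Oas3 moves from 0.83 to 0.18.

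In the KO group most members had their lowest value in the same library. KO replicate 2 held the lowest KO value for 27 of 35 members (77.1%), against 25.5% of all genes tested, and its median log2 difference from the mean of the other KO libraries was -0.24, against 0.044 for all genes. The difference was -1.12 for Mx1, -0.82 for Zbp1, -0.74 for Ifit1, -0.73 for Irf7 and -0.71 for Oas2, and the highest was 0.14, for Bst2. This pattern was noticed in these values and has no replicate of its own, so it is given without a test. Of the 14 members with the response element core in the promoter window 11 had their lowest KO value in that library, with a median of -0.26, and of the 12 with a window and no match 7 did, with a median of -0.15. All 9 members without a window did, with a median of -0.48, so the split by match covers only part of the set. All 391 tested genes with the core had a median of 0.031, near the 0.044 of all genes. Over the 116 tested pathway genes outside the set KO replicate 2 was the lowest KO library for 47 (40.5%) and the highest for 29, with a median difference of -0.066. The roles differed. For the 62 other interferon-induced genes it was the lowest in 30 and the highest in 11. For the 8 nucleases and editing enzymes it was the lowest in 1 and the highest in 5. Among the pathway genes and the cell markers, chosen after their values were seen, Cxcl10, a chemokine induced by interferon, was at 672, 195 and 549 in KO replicates 1 to 3. Ly6a, which encodes the sorting marker Sca-1 and is itself interferon-inducible, was at 9401, 5367 and 7870 there. The same library had the lowest KO sum for 7 of the 9 marker lists and the highest for the stem cell list (131921, against 116380 and 117350 in KO replicates 1 and 3). Its sums and those of KO replicates 1 and 3 were 21705, 47875 and 27318 for megakaryocytes, 75069, 107766 and 1001941 for granulocytes, and 23727, 27874 and 156106 for monocytes and macrophages. They were 4118, 5200 and 5166 for T and NK cells, 1660, 2377 and 2215 for conventional dendritic cells, 1613, 1854 and 1725 for B cells, and 2046, 2458 and 2105 for red cell precursors. The part of these cells in the low values of the members was not tested.

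**Figure D4:**
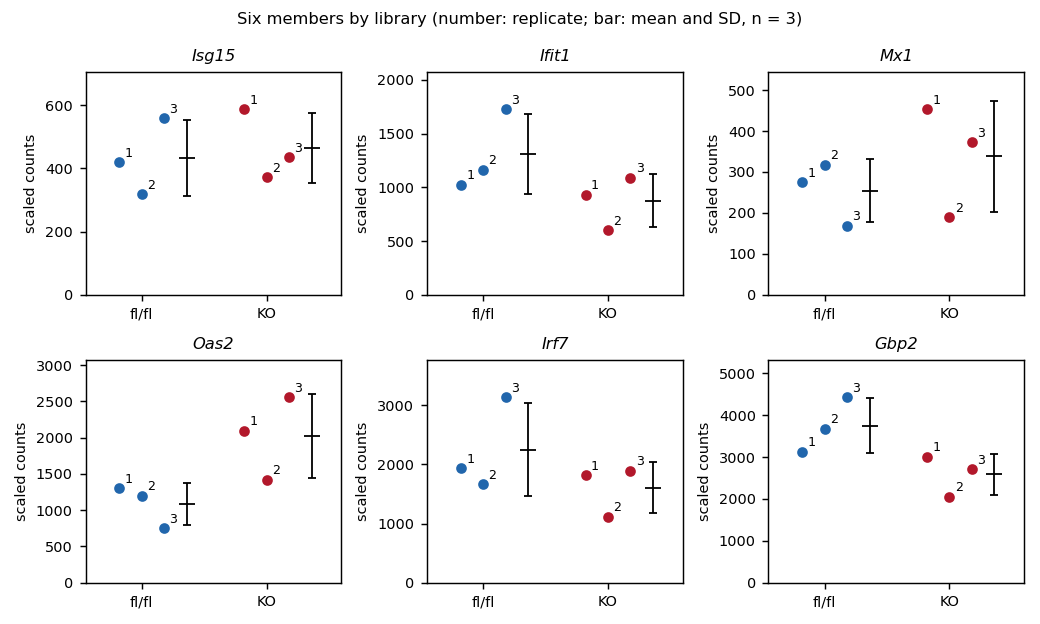
Scaled counts (vertical axes, from 0) of Isg15, Ifit1, Mx1, Oas2, Irf7 and Gbp2 in each fl/fl library (blue) and KO library (red), with the replicate number beside each point and the mean and SD (n = 3) as a bar. The genes were picked by hand with earlier results known. In all 6 genes the second KO library is the lowest of its group, as it is for 27 of all 35 members. Only Oas2 and Gbp2 of the 6 have groups that do not overlap.

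The other genes of the pathway were taken from a list of 139 interferon ligands, receptors, adaptors, nucleases and further interferon-induced genes, of which 137 were in the table and 116 were tested. Limma called 0 of them higher and 1 lower, where 0.276% and 0.453% of all genes were called. An unadjusted p below 0.05 was found for 19 (16.4%), 4 higher and 15 lower, and groups were apart for 28 (24.1%), against 18.2% and 28.2% of all genes. Without fl/fl replicate 3 the first count was 28 (7 higher and 21 lower), and without KO replicate 3 as well it was 37 (7 higher and 30 lower), against 23.8% and 26.2% of all genes. Interferon transcripts were at or near 0. Of 20 ligand genes 14 were at 0 in all libraries and the highest value was 15.4 scaled counts, that of Ifng in KO replicate 3. The T and NK cell list, of 7 genes, summed to 5166 in that library, within the range of the fl/fl libraries (4680 to 7315), though 3 of its genes were higher there than in every other library by far, Cd3e at 154, Cd3g at 124 and Cd8a at 87.4. Ifng was at 0 in each fl/fl library and at 1.18 and 9.62 in KO replicates 1 and 2, and Ifnb1 was at no more than 3.18 in any library.

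The gene that fell was Rnaseh2c (chromosome 19, 5601873 to 5607019), a subunit of the RNase H2 complex, which removes RNA from RNA-DNA hybrids and whose loss is known to trigger interferon signalling. It was at 4328, 3999 and 4762 scaled counts in fl/fl, against 2370, 2570 and 2142 in KO, with every KO library far below every fl/fl library. The log2 fold change was -0.89 ± 0.14 (limma, adjusted p = 0.0475; 0.0572 by edgeR and 3.53e-05 by DESeq2). It overlaps Kat5 on the other strand, so the origin of shared reads is uncertain. The call was lost when any library but fl/fl replicate 3 was left out (limma, adjusted p = 0.107 to 0.228) and with median-of-ratios, TMM or quantile scaling, while the fold change stayed between -0.95 and -0.75. Rnaseh2a, the catalytic subunit, was at 3935, 3900 and 5131 and at 3008, 3103 and 2177 (log2 -0.65; limma, adjusted p = 0.138), with Prdx2 overlapping it on the other strand. Rnaseh2b was at 3479, 3493 and 4124 and at 3954, 3828 and 3089 (log2 -0.033; limma, adjusted p = 0.924), with Dleu7 on the other strand, and its groups overlapped.

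In the other role groups no gene passed the limma threshold. The smallest p among receptors and Janus kinases was that of Ifngr2, a chain of the interferon gamma receptor (log2 0.55; limma, adjusted p = 0.265). Ifnar1 and Ifnar2, the chains of the type I receptor, were at 0.14 and -0.026, and their groups overlapped. Irf3, the factor downstream of the RNA sensors, was at -0.38 with the groups apart (limma, adjusted p = 0.209). Pias1, an inhibitor of STAT signalling, was at -0.35 (limma, adjusted p = 0.244). Zc3hav1 (ZAP, which binds viral RNA rich in CpG) was at 0.54 with the groups apart (limma, adjusted p = 0.15; 0.0233 by DESeq2). Among the 62 other interferon-induced genes tested, the smallest p was that of Psmb9, an immunoproteasome subunit, at 7476, 8902 and 11176 and at 5561, 5666 and 5170 (log2 -0.73; limma, adjusted p = 0.0846, and 0.0417 without fl/fl replicate 3), and it overlaps Tap1 on the other strand. B2m, the light chain of MHC class I, was at 85337, 94855 and 136822 and at 71984, 61583 and 63530 (log2 -0.66; limma, adjusted p = 0.128).

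**Figure D5:**
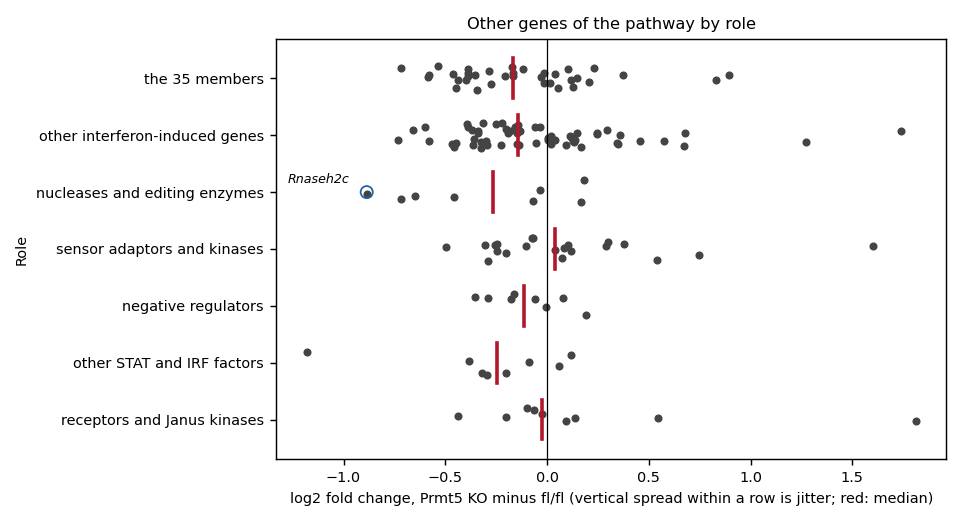
Log2 fold change between Prmt5 KO and fl/fl (horizontal axis) of the tested pathway genes outside the set, by role (rows), and of the 35 members (top row); each point is a gene, red lines are medians, and the vertical spread within a row is jitter. Rnaseh2c, circled, is the single gene past the limma threshold.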

How the data were processed

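Per the labels' protocols, RNA was extracted with Trizol, amplified by SMART-Seq v4, and libraries were made with Nextera XT. Per the submitters' processing notes, STAR and featureCounts were used with mm10 (versions and annotation not given in the sources used here). Whole read counts fill the deposited column of fl/fl replicate 2. The other 5 deposited columns are a scaled signal, in which the authors brought each count to the total of fl/fl replicate 2 (44704636). Undoing this gave whole reads for 100% of values within 1e-06. The deposited gene length, in bases and of no other unit, was used per kilobase and for length trends.

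The 14113 genes whose mean reached 10 scaled counts were tested by limma (trend) on log2(value + 1), two-sided, adjusted by Benjamini-Hochberg over all genes, with a threshold of 0.05. P values measure the spread between pools of 2 mice. EdgeR called 60 and DESeq2 981 genes on the recovered reads. The members, the lists and their roles were chosen with earlier results of these data known. Named by rule were members with groups apart, the highest level per kilobase and the largest fold change of each role, and in each pathway role the gene past the threshold or with the smallest p; all others named were chosen after their values were seen. Results for some pathway genes are not reported here. No library was a copy of another (chi-square over degrees of freedom 26.9 to 375). The script was tested on simulated data. Alternatives were other pseudocounts, filters, scalings and tools, a replicate block and each library left out, and, chosen after seeing the data, a length correction and leaving out replicate 3 of both groups. Coordinates are GENCODE M21 on GRCm38/mm10. R 4.3.3, limma 3.58.1, edgeR 4.0.16, DESeq2 1.42.0, Python 3.11.15 and matplotlib 3.10.9 were used.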

Additional observations from a re-analysis of the deposited data

How the results depend on the processing

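Members called stayed at 0 higher and 0 lower under all alternatives except DESeq2 (1 higher, Oas2) and the loss of fl/fl replicate 3 with KO replicate 3 (1 lower, Stat2; 0 with any single library left out). Their median log2 fold change stayed below 0 but ran from -0.28 without KO replicate 1 to -0.050 without KO replicate 2. The medians of all genes in these settings were -0.050 and -0.055, so without KO replicate 2 the members were level with all genes. Of the pathway genes DESeq2 called 1 higher, where it called 2.59% of all genes higher and 4.37% lower. The lower count was 0 with median-of-ratios, TMM, quantile, edgeR and the replicate block, 3 with DESeq2 and with the length correction, and 0 to 3 with libraries left out (2 if fl/fl replicate 3 alone was omitted, 3 if KO replicate 3 was omitted too, and 0 for each other single library). The cause was not tested.

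Log2 fold changes near 0 changed sign. Irf1 came to 0.071, 0.046, 0.036 and 0.060 with median-of-ratios, TMM, edgeR and DESeq2, Ifit3 to 0.055, 0.031, 0.028 and 0.051 (0.071 with quantile), and Igtp to 0.071, 0.047, 0.031 and 0.054. With the length correction Zbp1 was at 8.35e-04, Oas1a at 0.020, Oasl1 at 0.0035, Irf1 at 0.044, Trim25 at -0.095, Ifit3 at 0.15 and Igtp at 0.17. With libraries left out the ranges were -0.043 to 0.14 for Eif2ak2, -0.31 to 0.11 for Zbp1, -0.24 to 0.33 for Adar, -0.31 to 0.024 for Oasl1, -0.14 to 0.15 for Irf1, -0.084 to 0.35 for Isg15, -0.14 to 0.23 for Usp18, -0.30 to 0.17 for Trim25, -0.12 to 0.085 for Ifit3, -0.014 to 0.74 for Mx1, -0.10 to 0.41 for Rtp4, -0.23 to 0.44 for Parp14 and -0.19 to 0.18 for Igtp.

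Each fl/fl library shares its replicate number and a title prefix of unstated meaning with 1 KO library. Same-number deviations from the group means correlated at -0.14, 0.0675 and -0.256, and different-number ones at -0.251 to 0.347. Departures of single libraries, such as the length trend of fl/fl replicate 3, enter these values. They therefore cannot decide whether the numbers pair the libraries, and the block was kept as an alternative. With the replicate block 1 gene was called in all in place of 103, Prmt5 had an adjusted p of 0.0618 and Rnaseh2c one of 0.197 (limma).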
